A study of Ginkgo biloba with 9 samples.

Results

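The subject is the set of transcripts that were dominant in green leaves of Ginkgo biloba in September and no longer dominant in its yellow leaves in November. Ginkgo is a deciduous gymnosperm whose leaves yellow in autumn. Counts were scaled by median-of-ratios size factors, and the scaled value is called the normalized count below. A gene model belonged to the set when its mean normalized count was among the 100 highest of the green libraries and not among the 100 highest of the yellow libraries. This gave 62 of 43834 gene models, and all 62 passed the filter on low counts, as did 23042 models in all. A further 38 models were among the 100 highest at both stages, and another 62 in yellow leaves alone. Because the members were chosen on their green and yellow values, the difference between these stages is given as a description and supports nothing.

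RNA was sequenced from mature green leaves of September 12, turning leaves of October 26 and senescent yellow leaves of November 8, with 3 libraries per stage. No treatment or genotype separates the groups: all leaves came from 3 healthy adult trees grown outdoors at the same site, and stage and calendar date cannot be told apart, since each stage has a single date. The labels do not say which library came from which tree, so a p-value here refers to the spread among libraries of a stage, part of which may be technical. Leaves are mixtures of cell types, and in such bulk samples fewer cells of a type and less RNA per cell cannot be told apart.

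In a green leaf the messenger RNA pool is usually dominated by transcripts of photosynthesis, such as those of the light-harvesting proteins and the small subunit of Rubisco. As leaves senesce, chloroplasts are dismantled, chlorophyll is broken down and nutrients are withdrawn to the stem, and transcripts of breakdown and transport enzymes gain in weight. Which of the 62 members belong to these pathways is not known here, because the deposited file does not pair its identifiers with gene names, and leaf markers could not be checked for the same reason. Of the members, 61 have identifiers beginning with Gb_ and 1 has an identifier of another kind. Identifiers are given for 4 members, and the others are called by their rank in green leaves, where rank 1 is the highest mean normalized count. Gene lengths were not used, so a rank orders read counts and not numbers of molecules.

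Library totals ran from 23766331 to 32319325 counts. Size factors ran from 1.10 to 1.49 in green, 0.999 to 1.30 in turning and 0.651 to 0.742 in yellow libraries. Green library 3, turning library 3 and yellow library 3 held the smallest share of member counts within their stages, and values without them are given where they change a result. The choice of scaling moved directions: across all tested models the median log2 fold change of yellow versus green was -0.04 with size factors and -0.78 with library totals, and models called higher made up 49.4% and 24.9% of the calls (edgeR, adjusted p below 0.05). Directions below are on the size factor scale.

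The 62 members held a share of the sequenced counts that was smaller at each later stage. In green leaves they took 9.95%, 9.60% and 7.31% of the counts in libraries 1, 2 and 3. In turning leaves the shares were 5.73%, 5.99% and 4.98%, and in yellow leaves 3.01%, 2.64% and 2.27%. The stages did not overlap, a separation that the choice of members favours. Means were 8.96% ± 1.43 for green, 5.56% ± 0.522 for turning and 2.64% ± 0.368 for yellow leaves (SD, n = 3 libraries each). The 10 members with the highest green counts accounted for 2.66% ± 0.630 of green, 1.48% ± 0.207 of turning and 0.561% ± 0.0882 of yellow counts. For comparison, the 38 models dominant at both stages held 11.9% ± 0.934, 12.3% ± 1.01 and 12.1% ± 2.24 in the same order, and the 62 models dominant in yellow leaves alone 2.15% ± 0.497, 5.35% ± 0.645 and 11.7% ± 0.740.

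**Figure D1:**
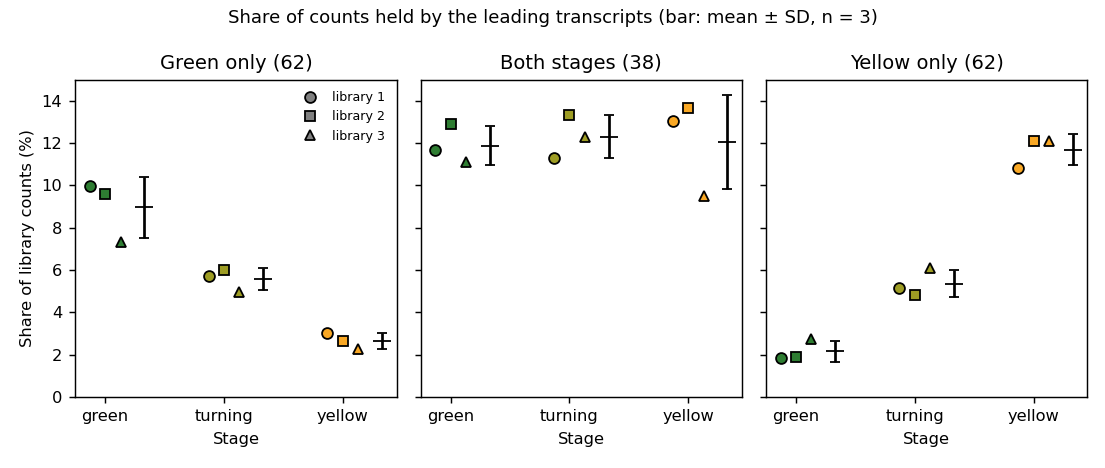
Share of each library's counts (%, vertical axis) held by the 62 members, the 38 models dominant at both stages and the 62 models dominant in yellow leaves alone, by stage; each symbol is 1 library and bars are mean ± SD of 3 libraries. The members' share lies between 7.31% and 9.95% in green libraries and between 2.27% and 3.01% in yellow libraries.

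The limits of the green and the yellow list were not equally high on the size factor scale. The 100th green model had a mean normalized count of 17762 and the next one 17709, while the 100th yellow model had 34896 and the next one 34528, so the yellow limit was 1.96 times the green one. The lowest member in green leaves, at rank 99, averaged 17867. The member nearest to the yellow list, at green rank 66, averaged 33387 in yellow leaves, at rank 105. Just outside the set, the model at green rank 101 stood at rank 135 in yellow leaves, and the model dominant at both stages with the lowest yellow rank, 98, averaged 35968 there.

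On this scale a member could therefore leave the leading 100 without any fall in its own normalized count. Mean size factors were 1.30 in green and 0.691 in yellow libraries, so the gap between the limits depended on the scaling. The mean was higher in yellow than in green leaves for 4 members with size factors, and for 1 member with counts scaled by library totals. The 19 members at green ranks 11 to 40 had green means above the yellow limit and had to average less in yellow leaves to be members. All 19 were called lower. The other 43 members, at green ranks 42 to 99, started below the yellow limit. Of these, 24 were called lower, 1 higher and 18 were not called in yellow versus green leaves. On the size factor scale, 21 of the 62 members still reached the green limit of 17762 in yellow leaves, but not the yellow one. Over all 62 members 43 were lower and 1 was higher in yellow than in green leaves, against 31.4% lower and 30.7% higher of all models tested. Every yellow library was below every green library for 44 members and above for 1, against 34.9% and 33.0% of tested models. These are the values that chose the members, and nothing is read from them.

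The size of the difference between yellow and green leaves varied widely among members. The mean in yellow leaves was between 0.704% and 174% of the green mean, with a median over members of 48.5%. At least 2-fold lower counts in yellow leaves were found for 31 members, at least 4-fold for 11 and at least 8-fold for 4, while 20 members lay within 1.5-fold. The members' median rank in yellow leaves was 377.5, with quartiles of 225.5 and 668, against ranks of 11 to 99 in green leaves. In yellow leaves 12 members were still among the 200 highest, 51 among the 1000 highest and 11 beyond rank 1000. Among all tested models the median log2 fold change of yellow versus green was -0.04, and among the members it was -1.04.

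**Figure D2:**
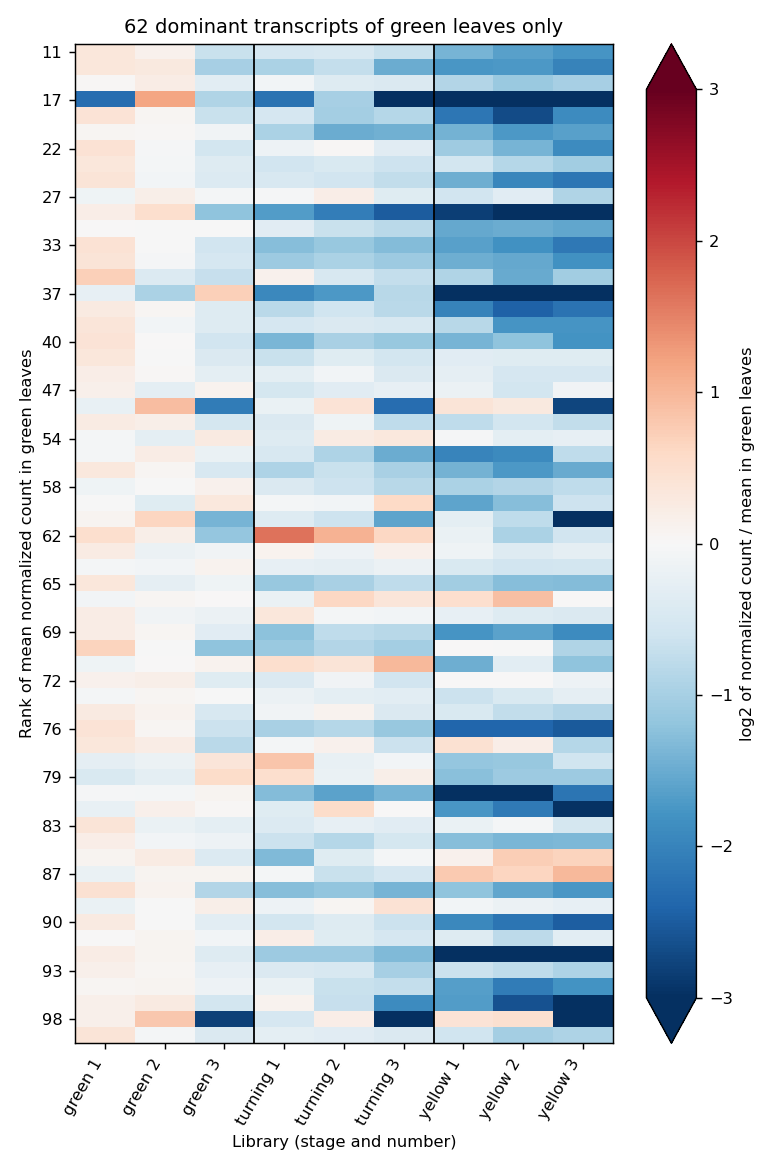
Normalized counts of the 62 members (rows, ordered by rank in green leaves) in the 9 libraries (columns), as log2 of the ratio to the member's mean in green leaves; colours saturate at ±3. Most rows are bluest (lower than in green) in the yellow libraries, the row of green rank 17 runs from blue to red within the green libraries, and the rows of green ranks 86 and 87 are red (higher) in all 3 yellow libraries.

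The turning libraries did not choose the members and show where the set stood in October. Of the 62 members, 28 were among the 100 highest of turning leaves, where all 38 models dominant at both stages and 24 of the 62 models dominant in yellow leaves alone were found as well, and 10 of the 100 places were held by models of none of these sets. The members' ranks in turning leaves ran from 23 to 503, with a median of 109 and quartiles of 69.5 and 200.75. Members found in single libraries among that library's 100 highest numbered 56, 57 and 46 in green libraries 1, 2 and 3, then 24, 31 and 25 in turning and 6, 3 and 0 in yellow libraries. In all 3 green libraries 39 members were among the 100 highest, 19 in 2 and 4 in a single library. Turning leaves had 20 members in the leading 100 of all 3 libraries and 26 in none. In yellow leaves 56 were in none.

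**Figure D3:**
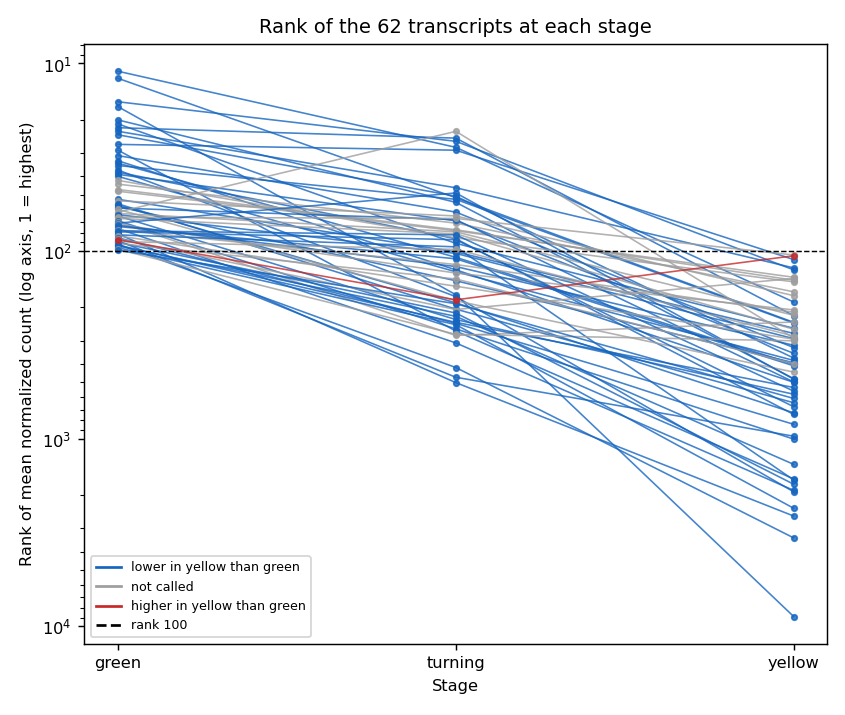
Rank of the mean normalized count (log axis, 1 at the top) of each of the 62 members in green, turning and yellow leaves; the dashed line marks rank 100 and colours give the call in yellow versus green leaves. At the turning stage 28 lines are at or above the dashed line, and the longest descent ends at rank 8887.

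Turning versus green leaves covers the first 44 days. In turning leaves 17 of the 62 members were lower and 0 were higher, against 12.5% lower and 11.5% higher of all models tested (quasi-likelihood test of edgeR, p adjusted by Benjamini-Hochberg, below 0.05). At an unadjusted p below 0.05 there were 27 members lower and 1 higher, 45.2% of the set, against 39.1% of all tested models. DESeq2 called 20 members lower and 1 higher, against 11.9% and 11.1% of its models. Its 32355 models were all those with any count, scarce ones included, so these shares have another base than those of edgeR. The median log2 fold change was -0.52 over the members and -0.02 over all tested models, and 51 of the 62 members were below 0, which became 58 with library totals. High green values chose the members, which favours lower turning values, so the count is a description. It depended on single libraries, as did the count over all tested models, 5528 in the main fit. With green library 1, 2 or 3 left out 5, 6 and 22 members were called, and 2176, 1970 and 4800 of all models. With turning library 1, 2 or 3 left out the counts were 11, 8 and 6 members and 3303, 3631 and 2518 models. Every turning library was below every green library for 25 members, against 24.8% of tested models, and above for 2 members, against 22.0%. With the library number as a block in the edgeR fit, 23 members were called lower and 1 higher, against 19.5% and 17.4% of all tested models.

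Yellow versus turning leaves covers the last 13 days. In yellow leaves 25 members were lower and 2 were higher than in turning leaves, against 20.2% and 21.3% of all tested models (edgeR, adjusted p below 0.05). With library totals, 49 were lower and 1 was higher, against 39.3% and 10.4% of all tested models. The median log2 fold change was -0.55 over the members and -0.02 over all models. Every yellow library was below every turning library for 33 members and above for 3, against 26.3% and 25.8% of tested models. Low yellow values entered the choice of members, so this count too is a description.

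The calls of both intervals divide the members into 5 patterns. A lower call in both intervals was made for 10 members, at green ranks 29, 31, 37, 38, 57, 69, 76, 81, 85 and 92. Their turning means were 24.2% to 66.4% of green, and their yellow means 9.24% to 39.9%. A lower call in the first interval alone was made for 7 members, at green ranks 21, 33, 34, 40, 58, 65 and 88, with yellow means of 27.7% to 54.9% of green. In the second interval alone 15 members were called lower, and 2 were called higher. The remaining 28 members were called in neither interval, which does not show that they stayed level, and 12 of them were lower in yellow than in green leaves. With the library number as a block in the fit, 16 members were lower in both intervals and 7 in the first alone. In the second interval alone 17 were lower and 2 higher, 1 rose and then fell, and 19 were called in neither. The patterns were not counted over all tested models, so the split is not read as particular to the members.

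Because green and yellow values chose the members, p-values of single members between stages, here and below, are a description. Among the 10 members that fell in both intervals, the example at green rank 31 was chosen after its values were seen. It had 46239, 45414 and 45070 normalized counts in green, 35891, 28691 and 26201 in turning, and 15798, 16138 and 15539 in yellow libraries. No value of one stage overlapped another, and its coefficient of variation was 1.32% across green, 16.6% across turning and 1.90% across yellow libraries. Its log2 fold change was -0.59 ± 0.15 in turning versus green (SE; edgeR adjusted p = 0.0274) and -0.94 ± 0.16 in yellow versus turning leaves (SE; edgeR adjusted p = 0.00215).

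An early fall was seen for the member at green rank 21, also chosen after its values were seen. It had 57096, 55904 and 50470 normalized counts in green, 28151, 19465 and 19987 in turning, and 20295, 16492 and 17655 in yellow libraries. Turning and green libraries were apart, and turning and yellow libraries overlapped. Its log2 fold change was -1.27 ± 0.19 in turning versus green (SE; edgeR adjusted p = 0.00425) and -0.31 ± 0.19 in yellow versus turning leaves (SE; edgeR adjusted p = 0.207).

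A late fall was seen for the member at green rank 82, likewise chosen after its values were seen. It had 17229, 22346 and 20398 normalized counts in green, 15436, 29236 and 20268 in turning, and 5995, 4609 and 2552 in yellow libraries. Green and turning libraries overlapped and all yellow libraries lay far lower. Its log2 fold change was 0.11 ± 0.33 in turning versus green (SE; edgeR adjusted p = 0.826) and -2.30 ± 0.35 in yellow versus turning leaves (SE; edgeR adjusted p = 0.00145).

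The timing of the fall can be expressed as the share of the log2 difference between green and yellow leaves that had been reached at the turning stage. This share and the midpoint below use the green and yellow values that chose the members, so both are a description. Over the 31 members at least 2-fold lower in yellow leaves, the median share was 0.39 with quartiles of 0.28 and 0.58, and 18 of the 31, or 58.1%, had a share under 0.5. Over all 6553 tested models that were at least 2-fold lower the median was 0.41, and 66.2% had a share under 0.5. Turning leaves differed from halfway between green and yellow leaves, taken as the mean of both on the log scale, for 0 members, against 1.12% of tested models below and 1.41% above it (edgeR, adjusted p below 0.05). At an unadjusted p below 0.05 there were 13 members, 10 above and 3 below that midpoint, or 21.0% of the set against 21.3% of all tested models. DESeq2 called 5 above and 2 below, against 1162 and 1294 of its 32355 models. The fit with the library number as a block called 6 above and 1 below, against 4.60% and 5.11% of tested models.

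The 2 largest fitted rises of members from green to turning leaves were those of Gb_06117 and Gb_40200. Gb_06117, at green rank 62, had 34839, 27580 and 11032 normalized counts in green, 76173, 50333 and 37908 in turning, and 21338, 12694 and 16508 in yellow libraries. Every turning library was above every green and every yellow library, and Gb_06117 had the best rank of all members in turning leaves, 23. Green and yellow libraries overlapped, with a log2 fold change of yellow versus green of -0.54 ± 0.43 (SE; edgeR adjusted p = 0.303). Its log2 fold change of turning versus green was 1.16 ± 0.44 (SE), which did not pass (edgeR adjusted p = 0.0839). It passed with the library number as a block (1.21 ± 0.30, edgeR adjusted p = 0.0192) and with DESeq2 (DESeq2 adjusted p = 0.0335). The adjusted p lay between 0.0192 and 0.231 across the alternatives. In yellow versus turning leaves it fell by 1.70 ± 0.44 on the log2 scale (SE; edgeR adjusted p = 0.0155; 0.000622 to 0.0562 over the alternatives). That call was lost without turning library 1 (edgeR adjusted p = 0.0504) and without yellow library 2 (edgeR adjusted p = 0.0562).

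Gb_40200, at green rank 71, was also highest in turning leaves. It had 20258, 22427 and 23958 normalized counts in green, 31672, 29255 and 43775 in turning, and 8009, 17967 and 9693 in yellow libraries. The 3 stages did not overlap, with turning highest and yellow lowest. The log2 fold change of turning versus green was 0.65 ± 0.30 (SE; edgeR adjusted p = 0.147; 0.0508 to 0.378 over the alternatives). The log2 fold change of yellow versus turning was -1.55 ± 0.31 (SE; edgeR adjusted p = 0.00473; 1.79e-05 to 0.047 over the alternatives).

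The 2 largest fitted falls from green to yellow leaves were those of Gb_41780 and Gb_29785. Gb_41780, at green rank 17, had 11857, 131420 and 31403 normalized counts in green, 12495, 28970 and 3533 in turning, and 128, 944 and 157 in yellow libraries. Green and turning libraries overlapped, and every yellow library was far below both. Green library 2 alone held 0.608% of its counts in this transcript, where it ranked 5th, against rank 193 in green library 1. Its coefficient of variation was 110% across green, 86.0% across turning and 113% across yellow libraries, the highest of all members in green and in yellow leaves. Library 2 was the highest at each stage. In turning versus green leaves the log2 fold change was -1.96 ± 1.13 (SE; edgeR adjusted p = 0.237; 0.0602 to 0.773 over the alternatives), and -0.53 without green library 2. The log2 fold change of yellow versus green was -7.15 ± 1.43 (SE), and -5.73 without green library 2, -8.67 without yellow library 2. In yellow versus turning leaves it was -5.19 ± 1.31 (SE; edgeR adjusted p = 0.0139; 0.000131 to 0.045 over the alternatives), -4.29 without turning library 2 and -6.71 without yellow library 2.

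Gb_29785, at green rank 29, had 55140, 68229 and 20642 normalized counts in green, 15003, 11390 and 8499 in turning, and 6748, 2623 and 3931 in yellow libraries. The stages did not overlap, and the mean in yellow leaves was 9.24% of that in green leaves. The log2 fold change of turning versus green was -2.05 ± 0.50 (SE; edgeR adjusted p = 0.0224; 0.000318 to 0.0796 over the alternatives). It was the lowest of all members in that comparison. The call was lost without green library 1, green library 2, turning library 2 or turning library 3, with edgeR adjusted p of 0.0688, 0.0768, 0.0626 and 0.0796. The log2 fold change of yellow versus turning was -1.39 ± 0.49 (SE; edgeR adjusted p = 0.0496; 0.0129 to 0.141 over the alternatives). That call was lost without any filter (edgeR adjusted p = 0.0618) and, at edgeR adjusted p of 0.0677, 0.0514, 0.135, 0.0963, 0.0551, 0.141 and 0.12, without green library 1, green library 2, turning library 1, 2 or 3, yellow library 2 or yellow library 3.

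**Figure D4:**
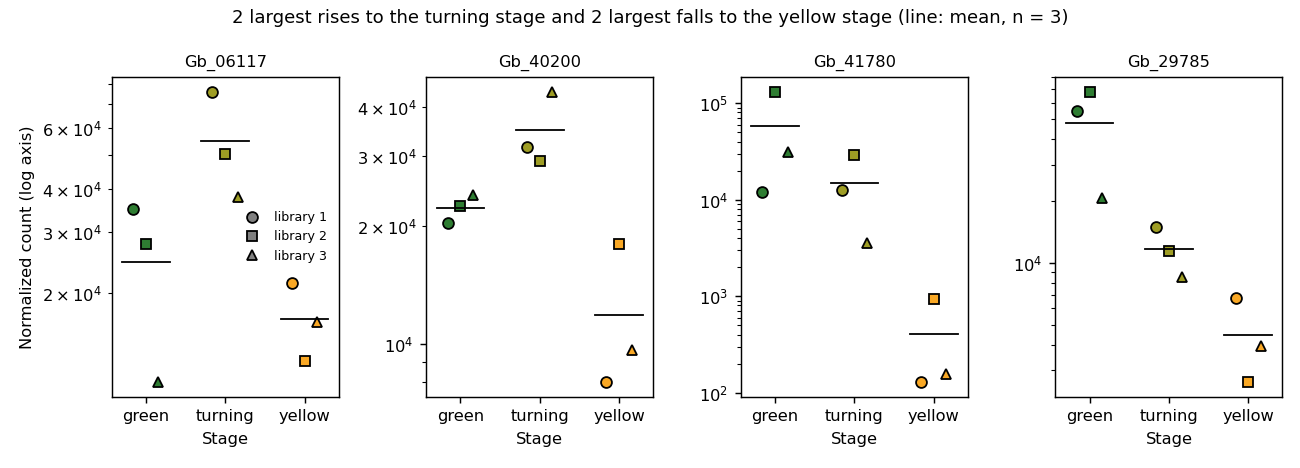
Normalized counts (log axis, a separate range per panel) of Gb_06117, Gb_40200, Gb_41780 and Gb_29785 by stage; each symbol is 1 library and lines are means of 3 libraries. Gb_06117 and Gb_40200 are highest in turning leaves, Gb_41780 spreads from 11857 to 131420 within green leaves, and Gb_29785 descends from stage to stage.

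The member at green rank 87 was called higher in yellow versus green leaves, yet left the leading 100. Mean normalized counts were also higher in yellow leaves at green ranks 66, 77 and 86, where the difference was not called and its direction turned with library totals. At rank 87 there were 16792, 20232 and 20351 normalized counts in green, 18467, 12061 and 13388 in turning, and 32848, 29904 and 37315 in yellow libraries. Every yellow library was above every green and turning library, yet its yellow rank was 106. With size factors its log2 fold change of yellow versus green was 0.80 ± 0.20, and with library totals 0.06 ± 0.19 (SE). In yellow versus turning leaves it was 1.19 ± 0.20 (SE; edgeR adjusted p = 0.00215), and 0.65 ± 0.19 with library totals (SE; edgeR adjusted p = 0.0203).

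The member at green rank 86 was the other one called higher in yellow than in turning leaves. It had 20388, 22572 and 14476 normalized counts in green, 7672, 14969 and 18410 in turning, and 21076, 31750 and 30276 in yellow libraries. Yellow libraries were above all turning libraries, and yellow and green libraries overlapped. The log2 fold change of yellow versus turning was 1.02 ± 0.33 (SE; edgeR adjusted p = 0.0373), and 0.47 ± 0.32 with library totals (SE; edgeR adjusted p = 0.25).

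The spread between green or yellow libraries comes from the values that chose the members, since 1 high green library can lift a model into the list. It is given as a description, and the turning libraries alone were not used in the choice. The members' median coefficient of variation was 24.1% across green, 17.1% across turning and 16.0% across yellow libraries, and over all tested models 18.5%, 20.9% and 25.7%. The values over all models include scarce ones with more counting error. The models dominant in yellow leaves alone had medians of 25.7%, 27.5% and 21.0%. A coefficient above 50% was found for 8 members across green, 4 across turning and 7 across yellow libraries.

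Libraries numbered 3 tended to be low for the members at each stage. Library 3 was the lowest of its stage for 43 of the 62 members among green, 36 among turning and 32 among yellow libraries. Over all tested models these shares were 38.5%, 35.5% and 33.2%. In all 3 stages library 3 was the lowest for 22 members, 35.5%, against 11.6% of all tested models. It was the highest in all 3 stages for 1 member, against 11.9%. Library 1 was the lowest throughout for 0 members and the highest for 7, against 6.69% and 6.08% of tested models, and library 2 the lowest for 3 and the highest for 5, against 9.78% and 9.83%. Library 3 was the lowest throughout for 0 of the 62 models dominant in yellow leaves alone and the highest for 17. Among the 38 models dominant at both stages it was the lowest for 6, or 15.8%, and the highest for 1, or 2.63%. These counts were made after the data were examined, and no difference between the sets was tested.

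A term for the library number passed for 4 members, against 6.74% of all tested models (edgeR F test with stage and library number, adjusted p below 0.05), a share near that of the background. DESeq2's likelihood ratio test gave 13 members and 3497 of 32355 models. It passed for 2 members when any 1 green library, turning library 2 or yellow library 2 was left out. All 4 had library 3 lowest at each stage, and they were the members at green ranks 48, 60, 77 and 98.

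The largest such difference was that of the member at green rank 98 (edgeR adjusted p = 0.00303). It had 19853, 31342 and 2581 normalized counts in green, 12709, 20641 and 983 in turning, and 23808, 24962 and 1001 in yellow libraries. Libraries 1 and 2 averaged 9.92 times library 3 in green, 17.0 times in turning and 24.4 times in yellow leaves. It ranked 91 and 50 in green libraries 1 and 2 and 1652 in green library 3. The member at green rank 48 had the same order (edgeR adjusted p = 0.00654), with 26915, 59886 and 7272 normalized counts in green, 27417, 41560 and 6445 in turning, and 40845, 38712 and 4616 in yellow libraries. For both members the yellow and green ranges overlapped widely, and they were the 2 members whose library 3 was below 50% of each other library at every stage, against 0.994% of tested models.

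At green rank 60 (edgeR adjusted p = 0.0385) the normalized counts were 26371, 38800 and 9404 in green, 18950, 16236 and 8264 in turning, and 20275, 14769 and 3123 in yellow libraries. At green rank 77 (edgeR adjusted p = 0.0268) they were 25906, 23871 and 11705 in green, 19735, 22314 and 13172 in turning, and 28068, 23550 and 11310 in yellow libraries. In both, library 3 lay below every other library of its stage. With the library number as a block the log2 fold change of yellow versus green at rank 60 was -1.09 ± 0.32, against -0.97 ± 0.70 without it (SE).

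**Figure D5:**
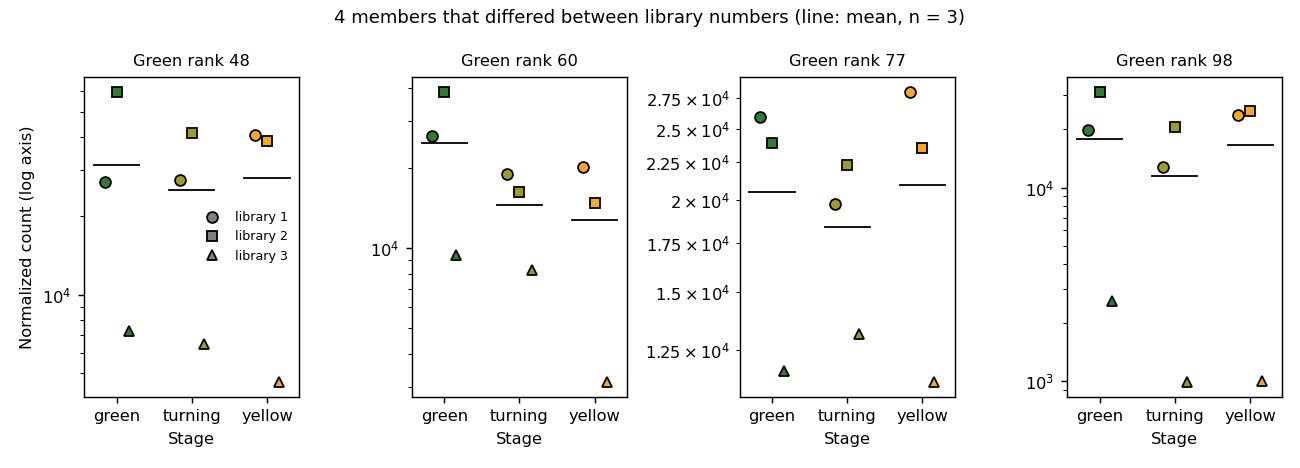
Normalized counts (log axis, a separate range per panel) by stage of the 4 members with a difference between library numbers; each symbol is 1 library and lines are means of 3 libraries. The triangle, library 3, is the lowest symbol at each stage in all 4 panels.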

How the data were processed

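The authors deposited unnormalized counts of reads for each gene model in 9 libraries; the values were whole numbers with totals that differ between libraries. HTSeq 0.6.1, HISAT2 2.0.4 and CASAVA 1.8 are listed, per the submitters' processing notes. The genome build, annotation, strand setting and read filters used are, in the sources at hand, not given. How reads shared by near-identical, overlapping or antisense models were counted, or whether they were left out, is therefore not known.

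Size factors were DESeq2's median of ratios over the 9 libraries, and a normalized count is a count divided by its size factor. Models were filtered with filterByExpr by stage (minimum count 10, minimum total 15). One edgeR 4.0.16 quasi-likelihood model (glmQLFit with robust = TRUE, glmQLFTest, R 4.3.3) with the stage as its term and those size factors as offsets was fitted to all 9 libraries, with two-sided tests and Benjamini-Hochberg adjustment over all tested models (threshold 0.05). Each standard error was the absolute fold change divided by the square root of F. The procedure was tested on simulated counts of independent libraries with few changed models. That simulation held no effect of the library number, so it does not show how the calls hold for paired libraries. Precision beyond counting error rests on 3 libraries per stage, and no 2 libraries of a stage agreed within sampling noise (chi-square per degree of freedom at least 43.9). The lowest raw count of any member in any library was 95.

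The labels do not say what a library number marks. It was taken to pair libraries because of the values. Deviations from stage means correlated with r of 0.25 to 0.66 across genes in all 9 same-number pairs, above the limit of 0.1. In other pairs r was -0.52 to 0.02, which is no separate evidence, because the deviations within a stage cancel out. The main fit did not use this pairing, and the fit with the library number as a block did. Alternatives were TMM factors, library totals, DESeq2 1.42.0, no filter, the library number as a block, each library left out, and other list rules; leaving out all libraries numbered 3 and the test of the library number were added after the data were examined. The members, lists and tests were chosen with earlier results of these data known. Without gene names, identifiers are given for the 2 members with the largest fitted rise in turning versus green leaves and the 2 with the largest fitted fall in yellow versus green leaves. Name-based gene lists and cell type markers could not be applied.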

Additional observations from a re-analysis of the deposited data

How the results depend on the processing

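Membership was little affected by the scaling or by any 1 library: leaving out 1 library, or all libraries numbered 3, gave 59 to 65 members, of which 56 to 62 were among the 62 reported. Lists of the 50 or the 200 highest gave 31 and 118 members. The shares of counts without 1 library were 8.46% to 9.78% in green, 5.35% to 5.86% in turning and 2.45% to 2.82% in yellow leaves, and 25 to 30 members were among the 100 highest of turning leaves.

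Turning versus green leaves gave 1970 to 6137 models and 5 to 22 members when libraries were left out, and 8489 models with the replicate block. With library totals 28 members were lower and 0 higher there, against 19.0% and 7.09% of all tested models. In yellow versus turning leaves library totals gave 49 lower and 1 higher, against 39.3% and 10.4%. In yellow versus green leaves they gave 54 lower and 0 higher, against 49.9% and 16.5%. Leaving out libraries gave 7285 to 9448 models and 20 to 31 members in yellow versus turning, and 12744 to 14406 models and 38 to 44 members in yellow versus green leaves.

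Calls against the midpoint were 584 models and 0 members, and reached 1362 models and 4 members with library totals, 2456 and 7 with DESeq2, and 2239 and 7 with the replicate block. They ranged from 0 to 535 models and 0 to 1 members when libraries were left out. The lowest count without a single library was 9 models, without turning library 2, and the 0 models came without all libraries numbered 3, where edgeR had 5035 at an unadjusted p below 0.05. The library number gave 3497 models and 13 members with DESeq2, and 289 to 1666 models and 2 to 5 members without single libraries. The cause of these differences was not tested. No fold change of the 4 identified members changed its direction under any alternative. The members' raw counts were at least 95 in every library, and whether depth or the number of libraries limited the calls was not tested.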
